A study of Drosophila melanogaster with 3 samples.

Results

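Single-gene promoter peaks were the peaks of SREBP-GFP chromatin whose summit lay within 500 bp of an annotated transcription start site (TSS) of exactly 1 protein-coding gene. The rule used the position of the summit and Ensembl's gene models alone, and no peak height. It took 2106 of the 7993 peaks in the authors' optimal set, or 26.3% (95% Wilson interval 25.4 to 27.3, which covers counting error only). A further 1212 peaks had start sites of several coding genes within the same distance and are called shared peaks. Single-gene peaks were thus 63.5% (61.8 to 65.1) of the 3318 promoter peaks.

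The peaks came from chromatin immunoprecipitation and sequencing (ChIP-seq) of whole larvae of the third instar at the wandering stage, shortly before the pupa forms, with males and females pooled and the age unknown. All 3 samples were biological replicates of 1 group, a stable transgenic line that carried GFP fused to the N terminus of SREBP, and the precipitation was done with an antibody against GFP. The labels also list HLH106, a synonym of SREBP, as the antibody. Whole animals mix the chromatin of all tissues, and the labels do not name the promoter that drove the transgene. No control library was used here. Each replicate list held 30000 peaks, and the read depth is unknown, because the files hold peaks and no reads. Peaks were ranked within a list by the authors' signal value, the caller's own measure of height, with rank 1 as the strongest.

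SREBP is a basic helix-loop-helix transcription factor that is made as a membrane protein of the endoplasmic reticulum (ER). SCAP escorts it to the Golgi, where proteases release the N-terminal part, which enters the nucleus. In mammals the family is known for genes of sterol and fatty acid synthesis, and in flies for fatty acid and phospholipid synthesis. It is known to bind both sterol regulatory elements (SRE) and palindromic E-boxes. A summit with the start site of a single gene nearby names that gene without the choice that a divergent or crowded promoter leaves, although a start site nearby is no measurement of regulation.

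The DNA under the strongest single-gene summits was rich in A and T. The 6 windows below reach 50 bases to each side of the summits of the strongest single-gene peaks from the arms whose sequence is shown here. They are written 5' to 3' on the strand of the gene, from the RefSeq copy of the dm6 assembly, with runs of 6 or more A or T in capitals.
Ugalt, chrX:2703840-2703940, minus strand: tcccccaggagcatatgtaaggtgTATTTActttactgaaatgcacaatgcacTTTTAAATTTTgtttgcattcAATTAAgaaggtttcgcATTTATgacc
CG14100, chr3L:19590577-19590677, minus strand: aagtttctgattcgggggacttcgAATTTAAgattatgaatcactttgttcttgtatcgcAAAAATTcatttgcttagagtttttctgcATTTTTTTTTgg
ph-p, chrX:2137274-2137374, minus strand: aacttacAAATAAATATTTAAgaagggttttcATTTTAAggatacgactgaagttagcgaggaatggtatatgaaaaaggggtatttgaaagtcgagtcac
CG18549, chr3R:12449120-12449220, plus strand: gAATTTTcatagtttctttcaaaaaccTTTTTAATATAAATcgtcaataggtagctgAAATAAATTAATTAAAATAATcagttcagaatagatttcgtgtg
Gapdh2, chrX:15867927-15868027, plus strand: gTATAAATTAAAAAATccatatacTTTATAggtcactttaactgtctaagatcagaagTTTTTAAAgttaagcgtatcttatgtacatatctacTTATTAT
PNPase, chr3R:31404612-31404712, minus strand: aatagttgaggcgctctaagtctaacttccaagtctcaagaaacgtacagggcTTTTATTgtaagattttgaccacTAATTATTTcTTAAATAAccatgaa
Each of the 6 windows held 2 to 4 such runs. Their A+T content ran from 65.3% at Ugalt to 76.2% at CG18549 and Gapdh2, and these letters were marked after the base composition had been seen.

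The strongest single-gene peaks were named by a fixed rank, and most of them kept a high rank in every replicate. The strongest peak of the whole optimal set was the peak of Ugalt, the UDP-galactose transporter of the Golgi, at chrX:2703656-2704127. It ranked 1 in replicate 1, 1 in replicate 2 and 1 in replicate 3. Its summit lay at -38 bp from the TSS in replicates 1 and 2 and at -34 bp in replicate 3, where a minus sign means upstream on the gene's strand. CG14100 had rank 3 in the optimal set and ranks 2, 11 and 3 in replicates 1, 2 and 3. The peak of ph-p, which encodes a Polycomb repressive complex subunit, had rank 4 and ranks 5, 5 and 4. It lay in an intron of ph-p at -469 bp from an internal start site. A second single-gene peak of ph-p, at +430 bp from the gene's first start site, had rank 50 and replicate ranks 44, 47 and 54. The neighbouring gene ph-d is a near-identical tandem copy of ph-p with 2 single-gene peaks of its own, the stronger at rank 2883, so ranks at both copies are uncertain where reads could fit either.

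The next peaks showed where replicates differed. CG1888 had rank 7 with replicate ranks 6, 8 and 7. CG18549 had rank 8 with replicate ranks 9, 4 and 9, and its summits lay at -125, -126 and -134 bp. For mRpL41, a protein of the large mitochondrial ribosomal subunit, the rank was 12 and the replicate ranks were 8, 30 and 10, so replicate 2 stood lower than the other replicates. Gapdh2, a glyceraldehyde-3-phosphate dehydrogenase of glycolysis, went the other way, with rank 16 and replicate ranks 31, 7 and 21. PNPase, the mitochondrial polynucleotide phosphorylase, had rank 19 and replicate ranks 24, 18 and 14, and its summit lay downstream of the TSS, at +78 bp.

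The rest of the 15 strongest genes held regulators, chaperones and translation factors. Sox14, a transcription factor gene induced by ecdysone, had rank 23 and replicate ranks 21, 31 and 26. Fkbp14, a prolyl isomerase of the ER, had rank 26 and replicate ranks 45, 15 and 24. The peak of eIF6, a factor of large ribosomal subunit assembly, had rank 32 and replicate ranks 20, 60 and 37. Both eIF6 and the small heat shock protein gene Hsp27 (rank 34, replicate ranks 60, 17 and 31) spanned a wide range, with replicate 2 the lowest for eIF6 and the highest for Hsp27. CG13921 had rank 38 with replicate ranks 39, 38 and 33, a narrow range. Lpin, the phosphatidate phosphatase that makes diacylglycerol, had rank 40 and replicate ranks 49, 28 and 43. The peak of larp, an RNA-binding protein gene, had rank 48 and replicate ranks 56, 45 and 52. The summit of Lpin lay at -241 bp in the optimal set and at -263, -244 and -241 bp in the replicates, and that of larp at -336 bp against -336, -326 and -337 bp.

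**Figure D1:**
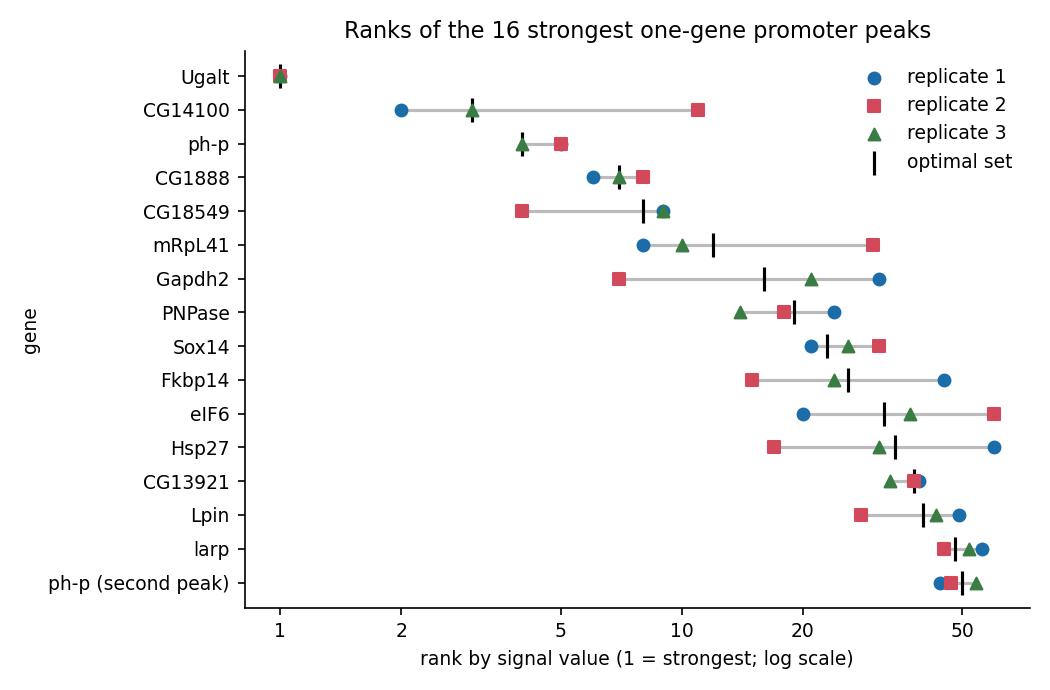
Ranks by signal value (log scale) of the 16 strongest single-gene promoter peaks, which belong to 15 genes, in replicates 1, 2 and 3 (symbols) and in the optimal set (black bars); grey lines join the lowest and highest replicate rank. Ugalt ranked 1 in every list, while the replicate ranks of CG14100 ran from 2 to 11 and those of Hsp27 from 17 to 60.

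Across the 1880 single-gene peaks found in every full replicate list, the highest replicate rank was a median of 1.50 times the lowest. Among the single-gene peaks within the 1000 strongest of the optimal set, the largest ratio was that of PlexA, a semaphorin receptor gene, whose peak had replicate ranks 322, 2365 and 546. CG14100 and Gapdh2 had the next ratios. Some heat shock genes ranked higher in replicate 2 than in the others: replicate 2 ranked Hsp27 at 17, Hsp83 at 536, Hsp26 at 647 and the chaperone cofactor gene stv at 1339. Replicates 1 and 3 ranked Hsp27 at 60 and 31, Hsp83 at 1609 and 1365, Hsp26 at 2387 and 1497, and stv at 2297 and 2381. Other genes of the same list did not share this order. Xbp1, stronger than Hsp83, had replicate ranks 964, 914 and 768, Hsp22 had 3816, 4216 and 5794, and DnaJ-1 had 5281, 7700 and 4176. Hsp23 had 6207, 13896 and 6459, where the replicate 2 rank is that of the nearest summit. A stronger one, among the 7993 strongest of replicate 2, also lay within 150 bp, so Hsp23 is no clear exception. The 4 genes were picked after their values were seen, and the pattern has no test.

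Most single-gene summits lay upstream of the start site. The median position was -128 bp, with the middle 50% of summits between -240 and -31 bp, and 1713 of 2106 (81.3%, 79.6 to 82.9) were upstream. The interval from -300 to -50 bp held 1168 summits (55.5%), and 331 (15.7%) lay within 50 bp of the TSS on either side. At the summits of the replicates the median was -135, -130 and -128 bp, a mean of -131 ± 3.61 (SD, n = 3). Shared peaks lay nearer, with replicate medians of -104, -98 and -96 bp. The difference was -31, -32 and -32 bp in the 3 replicates (exact sign-flip permutation test, two-sided, p = 0.25, the smallest that 3 replicates allow). Part of that difference is set by the rule, since the position of a shared summit is measured to the nearer of its start sites, and with a limit of 250 bp it was -6.67 bp. With only the first TSS of each gene it was -20.3 bp.

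**Figure D2:**
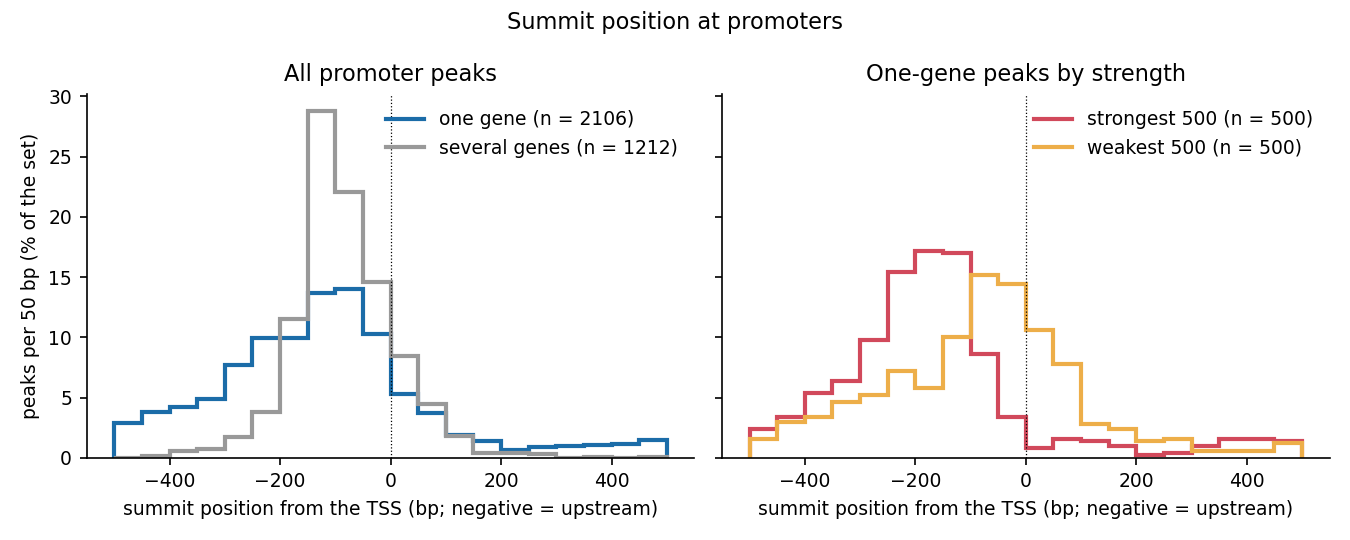
Summit positions of promoter peaks in bins of 50 bp from the TSS (x axis in bp, negative upstream on the gene's strand; y axis in percent of the set), for single-gene and shared peaks (left) and for the 500 strongest and 500 weakest single-gene peaks (right). Single-gene summits had a median of -128 bp and a long upstream tail, and the strongest 500 lay farther upstream, at a median of -182.5 bp, than the weakest 500, at -72 bp.

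Position moved with strength. The 500 strongest single-gene peaks, with ranks 1 to 1928, had a median position of -182.5 bp and 89.0% (86.0 to 91.5) upstream. The 500 weakest, with ranks 6256 to 7981, had a median of -72 bp and 70.4% (66.3 to 74.2) upstream. When the rule was applied to the 7993 strongest peaks of each replicate, the strongest 500 had medians of -181, -184 and -183.5 bp, and the weakest 500 had -92.5, -35 and -76.5 bp. The groups did not overlap between replicates, and the weak peaks varied far more, with an SD of 29.7 bp against 1.61 bp (n = 3). The strongest peaks with a summit downstream were those of PNPase, of ph-p at +430 bp and of CG10413, at +108 bp with rank 70 and replicate ranks 61, 80 and 75.

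Single-gene peaks were weaker than shared peaks in every replicate. Their median rank was 4148.5 in the optimal set, against 2980.5 for shared peaks. In the full replicate lists the matched single-gene peaks had median ranks of 3897, 4077 and 4115, and the shared peaks 2577.5, 3322 and 2853.5. The difference was 1319.5, 755 and 1261.5 ranks, a mean of 1112 ± 311 (SD, n = 3; exact sign-flip permutation test, two-sided, p = 0.25, the smallest possible), and 713 with a limit of 1000 bp in the rule. The share of promoter peaks that had a single gene was 57.0% among the 1000 strongest optimal peaks, lowest among the next 1000, with 227 of 445, and 76.1% among those ranked 7001 to 7993. In the own lists of replicates 1, 2 and 3 it went from 52.2%, 64.0% and 55.2% in the first 1000 to 75.0%, 73.7% and 74.7% in the last bin, a rise of 22.8, 9.73 and 19.4 percentage points (exact sign-flip permutation test, two-sided, p = 0.25, the smallest possible).

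**Figure D3:**
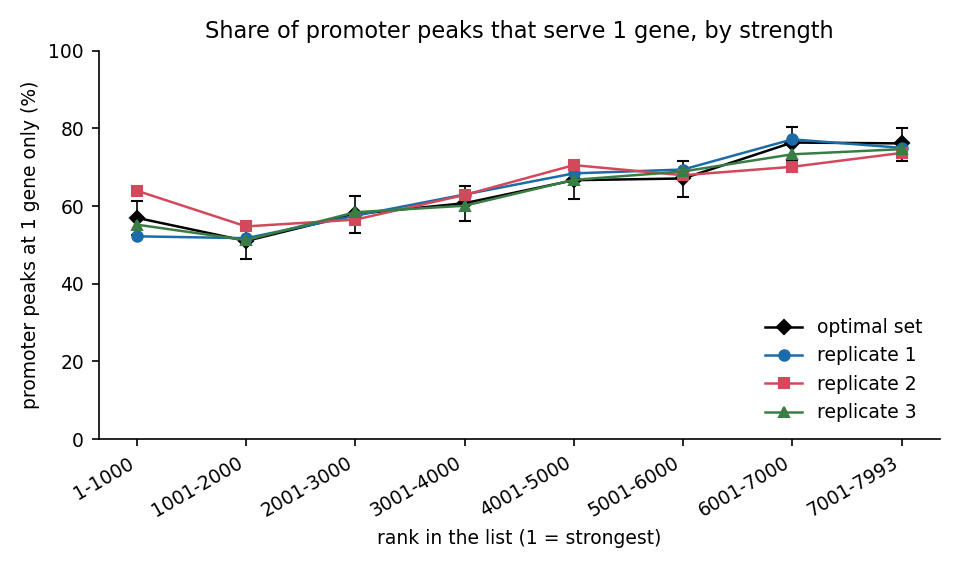
Share of promoter peaks that had a single gene (y axis, percent) in bins of rank (x axis, 1 is the strongest) in the optimal set and in the 7993 strongest peaks of each replicate; error bars on the optimal set are 95% Wilson intervals. The share was 57.0% in the strongest bin and 76.1% in the weakest bin of the optimal set, and it rose from the first to the last bin in each replicate.

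Replicates found most single-gene peaks again. Among the 7993 strongest peaks of replicates 1, 2 and 3, a summit within 150 bp was found for 85.8%, 83.4% and 87.0% of them, a mean of 85.4% ± 1.83 (SD, n = 3). For shared peaks the shares were 90.7%, 85.8% and 93.5%. The difference was -4.92, -2.43 and -6.49 percentage points (exact sign-flip permutation test, two-sided, p = 0.25, the smallest possible). It was -0.125 points (exact p = 0.75) when the full replicate lists were searched, and -2.26 points (exact p = 0.5) with a limit of 1000 bp in the rule. All 3 replicates held 1419 of the single-gene peaks (67.4%, 65.3 to 69.3), exactly 2 held 467, exactly 1 held 203 and none held 17. The optimal set was the 7993 strongest peaks of a pooled list that derives from the same 3 replicates. Finding its peaks again in those replicates is thus a description and no independent check. The share in all 3 replicates was 99.2% for the strongest 500 and 11.8% for the weakest 500, a contrast that the search among the 7993 strongest largely sets, since the weakest 500 lie near that limit. In the full lists the shares were 99.2% and 78.6% (74.8 to 82.0). The matched replicate summits lay a median of 13, 15 and 12 bp from the optimal summit.

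Applied to each replicate's own 7993 strongest peaks, the rule gave 2073, 2237 and 2112 single-gene peaks. They were 63.0%, 65.2% and 62.8% of that replicate's promoter peaks, a mean of 63.7% ± 1.30 (SD, n = 3). They named 1804, 1861 and 1832 genes. Of the 2416 genes named by any replicate, 1295 were named by all 3.

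The strongest summits lay in a narrow A+T-rich trough. Within 50 bp of the summit, the G+C content of the strongest 500 single-gene peaks had a median of 28.7%, against 44.6% in windows 300 bp to either side. The weakest 500 had 41.6% at the summit and 41.6% at the sides. In the own lists of the replicates, the strongest 500 had medians of 28.7% in each, and the weakest 500 had 38.6%, 42.1% and 39.6%. The difference was -11.4 ± 1.78 percentage points (SD, n = 3; exact sign-flip permutation test, two-sided, p = 0.25, the smallest possible). All 2106 single-gene peaks had a median of 33.7%, shared peaks 29.7%, and windows placed at the same offset of -128 bp from 13840 start sites with a single gene nearby 38.6%. Base composition can change how well DNA is fragmented, amplified and aligned, and its part in these heights was not tested. The comparison of the strongest and weakest 500 was chosen after the data had been seen.

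**Figure D4:**
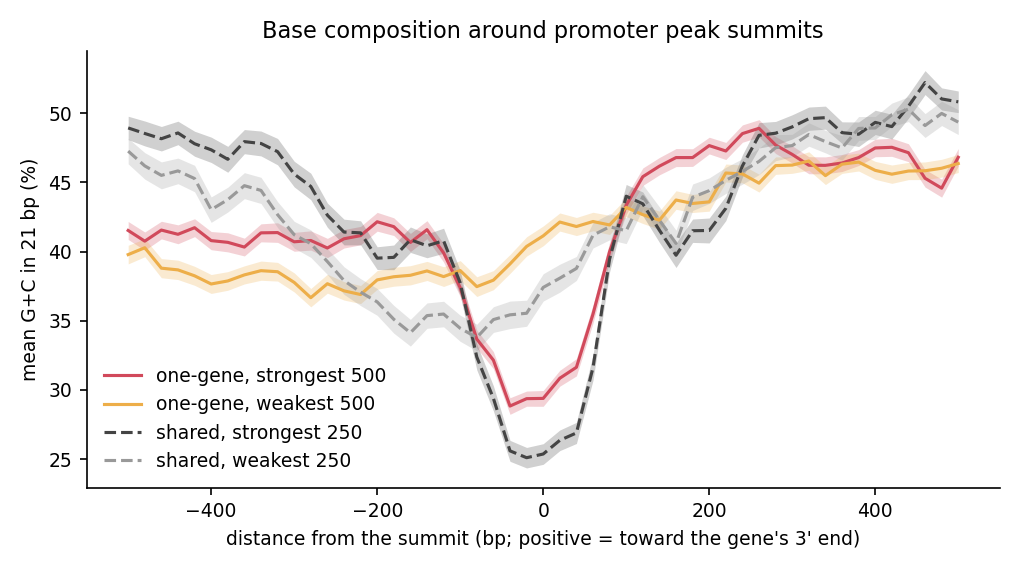
Mean G+C content (y axis, percent, in windows of 21 bp placed every 20 bp) by distance from the summit (x axis, bp, positive toward the 3' end of the gene) for the 500 strongest and 500 weakest single-gene peaks and for the 250 strongest and 250 weakest shared peaks; bands are the standard error over peaks, which are not replicates. The strongest single-gene peaks had 29.4% at the summit and 47.7% at 200 bp toward the gene, while the weakest had 41.1% and 43.6%. At 200 bp in the other direction the strongest had 42.2% and the weakest 38.0%, so the sides were not alike.

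The letters of an SRE were seen in 3 of the 2106 windows (0.142%, 0.0485 to 0.418). The motif searched was TCACNCCAC on both strands, where N is any base, with windows as above. The 3 peaks were of middling to low strength. They belonged to VhaPPA1-1, a subunit of the vacuolar proton pump, at rank 4757 (replicate ranks 4683, 3748 and 7712), to CG12768 at rank 5907 (7294, 3898 and 6339, where the replicate 2 peak is also the match of a second CG12768 peak) and to CG5510 at rank 6334 (7347, 5767 and 5973). They are shown because the SRE is the element the family is named for, with the match in capitals.
VhaPPA1-1, chr3R:14904003-14904103, minus strand: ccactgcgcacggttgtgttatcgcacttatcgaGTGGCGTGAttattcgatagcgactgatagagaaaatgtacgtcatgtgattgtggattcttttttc
CG12768, chr3L:22910153-22910253, plus strand: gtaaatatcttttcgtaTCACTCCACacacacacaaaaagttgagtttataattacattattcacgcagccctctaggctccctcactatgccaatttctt
CG5510, chr3R:24169520-24169620, minus strand: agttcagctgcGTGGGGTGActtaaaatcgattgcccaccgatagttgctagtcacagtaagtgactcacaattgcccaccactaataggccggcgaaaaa
Shared peaks held these letters in 0.165% of windows, optimal peaks away from coding start sites in 0.150%, and the 13840 start sites with a single gene nearby in 0.152%, so the share was near that of promoters at large.

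The palindromic E-box CACGTG was seen in 24 single-gene windows (1.14%, 0.767 to 1.69). At shared peaks it was in 0.660% of windows, at optimal peaks away from coding start sites in 0.299% (0.178 to 0.502), and at all single-gene start sites in 1.16%. In the own lists of the replicates the E-box was in 0.916%, 0.894% and 0.852% of single-gene windows and 0.822%, 1.00% and 0.961% of shared windows, so the higher share at single-gene peaks was not kept in replicates 2 and 3. The longer form TCACGTGA, which contains it, was in 0 of 2106 windows, which allows a share of up to 0.142% when 3 counts are taken as the limit that a count of 0 allows, and of 0.182% by the Wilson interval. The 3 strongest peaks with CACGTG from the arms whose sequence is shown were those of fok, at rank 140 with replicate ranks 160, 100 and 153, CG4408, at rank 537 with 606, 556 and 457, and CG45544, at rank 610 with 702, 497 and 631. Their windows follow, with the E-box in capitals.
fok, chr2L:20085207-20085307, minus strand: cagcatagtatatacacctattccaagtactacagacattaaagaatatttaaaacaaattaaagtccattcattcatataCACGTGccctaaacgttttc
CG4408, chr3R:23363640-23363740, minus strand: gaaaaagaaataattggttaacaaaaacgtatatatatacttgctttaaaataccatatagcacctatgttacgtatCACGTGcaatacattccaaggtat
CG45544, chr3R:29256266-29256366, plus strand: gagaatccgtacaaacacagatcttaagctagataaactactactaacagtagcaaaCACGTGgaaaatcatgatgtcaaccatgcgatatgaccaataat
The summit is base 51 of each window when counted from 1 at the left, and the matches began at base 82 in fok, base 78 in CG4408 and base 58 in CG45544.

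Several of the searched motifs, among them letters of 2 promoter elements, were seen more often at weak than at strong single-gene peaks. The TATA box letters and those read by GATA factors were seen less often. The strongest 500 windows had a median G+C content of 28.7% and the weakest 500 had 41.6%, and its part in these shares was not tested. The DNA replication element (DRE, TATCGATA) is bound by Dref at many promoters of broadly expressed genes, and the letters GGTCACACT are bound by M1BP (motif 1 binding protein). The DRE was in 62 single-gene windows (2.94%, 2.30 to 3.76) and in 3.63% of shared windows. All single-gene start sites held it in 0.845%, and optimal peaks away from coding start sites in 0.193%. In the own lists of replicates 1, 2 and 3, it was in 2.56%, 2.46% and 3.125% of single-gene windows. Shared windows held it more often there, in 3.125%, 4.10% and 3.92%. By strength, the DRE was in 0.6% of the strongest 500 and 4.2% of the weakest 500 single-gene windows. In the own lists of the replicates the strongest 500 had 0.8%, 0.6% and 0.8%, and the weakest 500 had 3.2%, 3.4% and 5%. The M1BP letters were in 29 windows (1.38%, 0.960 to 1.97), against 0.347% of all single-gene start sites and 1.49% of shared windows. They were, in these own lists, in 0.2%, 0% and 0.2% of the strongest 500 and 3.4%, 3.4% and 3% of the weakest 500, and the ranges did not overlap for either motif. Peaks with the M1BP letters had a median position of -20 bp and a median rank of 6600. Both motifs were searched on both strands, and the background windows lie at -128 bp, farther from the start site than the weak peaks do.

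The 3 strongest DRE windows from the arms whose sequence is shown belonged to eEF1gamma, a translation elongation factor subunit (rank 938), CG2200 (rank 2101) and RpL27, a protein of the large ribosomal subunit (rank 2170). They are shown with the DRE in capitals, because it was more frequent here than at all single-gene start sites, though not than at shared peaks.
eEF1gamma, chr3R:29220082-29220182, plus strand: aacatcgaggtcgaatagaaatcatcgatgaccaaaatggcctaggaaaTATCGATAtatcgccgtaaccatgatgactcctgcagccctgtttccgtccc
CG2200, chrX:13094293-13094393, plus strand: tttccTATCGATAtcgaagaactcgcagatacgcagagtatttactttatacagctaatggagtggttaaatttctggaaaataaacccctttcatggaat
RpL27, chr3R:25685024-25685124, minus strand: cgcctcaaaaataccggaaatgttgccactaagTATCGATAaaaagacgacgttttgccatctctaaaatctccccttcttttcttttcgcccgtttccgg
The DRE began at base 50 in eEF1gamma, where it spanned the summit, and at bases 6 and 34 in CG2200 and RpL27. The corresponding windows with the M1BP letters in capitals belonged to Rnp4F, an RNA-binding protein gene (rank 2040), RpL37A, another protein of the large subunit (rank 2899), and CG4098 (rank 4211).
Rnp4F, chrX:5322638-5322738, minus strand: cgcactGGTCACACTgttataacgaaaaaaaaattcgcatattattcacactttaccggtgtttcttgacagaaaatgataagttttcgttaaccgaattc
RpL37A, chr2L:5070932-5071032, plus strand: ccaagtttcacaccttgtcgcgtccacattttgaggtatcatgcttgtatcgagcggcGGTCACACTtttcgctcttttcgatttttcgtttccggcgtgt
CG4098, chr3L:16609291-16609391, minus strand: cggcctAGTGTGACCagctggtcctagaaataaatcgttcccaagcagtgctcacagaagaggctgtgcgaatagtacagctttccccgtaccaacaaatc
At the cytosolic ribosomal protein genes, 11 of 46 single-gene peaks (23.9%) held a DRE or the M1BP letters, against 91 of all 2106 (4.32%). Peaks of these genes also lay nearer the start site, at a median of -34 bp against -128 bp for all single-gene peaks. The part of position in this contrast was not tested.

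The other letters searched gave the following shares. GAGAGAG, the letters of GAGA factor, was in 1.90% of single-gene windows and 0.165% of shared windows, against 4.70% of all single-gene start sites. In the own lists it was in 1.40%, 2.19% and 1.80% of single-gene windows and in 0.0822%, 0.586% and 0.320% of shared windows, a difference of 1.47 ± 0.144 percentage points (SD, n = 3; exact sign-flip permutation test, two-sided, p = 0.25, the smallest possible). By strength, GAGAGAG was in 0.6% of the strongest 500 and 3.0% of the weakest 500 single-gene windows. Replicate by replicate, in their own lists, the strongest 500 had 1%, 0.8% and 0.6%, and the weakest 500 had 1.6%, 2.6% and 3.2%, with no overlap. The TATA box letters TATAAAA were in 8.93% of single-gene windows, 13.2% of shared windows and 6.76% of all single-gene start sites. Optimal peaks away from coding start sites held them in 10.7% of windows. Single-gene summits with these letters had a median position of -177 bp. The TATA box letters went the other way with strength, with 13.0% of the strongest 500 and 6.4% of the weakest 500. These were, in the replicates' own lists, 12.4%, 13.0% and 12.8% against 10.6%, 5.8% and 6.4%, also with no overlap. AGATAA, read by GATA factors, was in 10.8% of the strongest 500 and 6.6% of the weakest 500. It was in 7.41% of all single-gene windows, and 7.32% of all single-gene start sites held it. The initiator letters TCAGT were in 17.0% against 16.3%, and in 13.6% of the strongest 500 and 20.4% of the weakest 500. TGANTCA, of AP-1, was in 2.18% against 2.34%. CACACACA was in 1.52% against 2.67%, with 0.4% of the strongest 500 and 2.0% of the weakest 500, and the Zelda letters CAGGTAG in 0.285% against 0.679%.

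The 2106 peaks named 1811 of the 13945 protein-coding genes, which is 13% of all coding genes and 13.4% of the 13470 genes whose start sites leave room for a single-gene summit. A single-gene peak found in all 3 replicates was present at 9.19% of coding genes, and a single-gene peak among the 1000 strongest optimal peaks at 1.98%. Another 2198 genes (15.8%) had a shared peak only, and 9936 had neither. Of the named genes, 1560 had 1 single-gene peak and 251 had 2 or more. Of the 1811, 110 had a shared peak as well. Sequence with a single coding gene nearby made up 87.1% of all sequence within 500 bp of a TSS, or 13.3 Mb, and held 158 peaks per Mb. The 1.98 Mb with several genes nearby held 611 per Mb, and the remainder of the arms held 39.4 per Mb.

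Genes with more start sites had a single-gene peak more often. The share was 8.61% (8.07 to 9.18) of genes with 1 annotated TSS, 19.5% (18.0 to 21.1) with 2, 35.0% (31.6 to 38.7) with 3 and 54.4% (49.8 to 59.0) with 4 or more. Their promoter sequence also held more peaks per Mb, with 116, 188, 237 and 238. Genes with a single-gene peak had a median length of 4885 bp, genes with a shared peak only 2450 bp, and all coding genes 2166 bp.

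A sizeable share of the peaks lay at internal start sites. The nearest TSS was the first of the gene at 1419 peaks (67.4%) and lay more than 1000 bp inside the gene at 483 (22.9%). Those more than 1000 bp inside had a median rank of 3978 and lay a median of -209 bp from the TSS. At first start sites the medians were 4211 and -121 bp. Beyond 10000 bp inside the gene there were 170 peaks, led by Lpin, larp, RapGAP1, Ptpmeg2 and for. RapGAP1, a GTPase-activating protein of Rap1, had its peak 48406 bp downstream of its first TSS, with rank 72 and replicate ranks 54, 93 and 84. The peak of for, the cGMP-dependent protein kinase known from foraging behaviour, had rank 96 and replicate ranks 106, 75 and 112.

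Some genes carried several single-gene peaks. Of the 251 genes with 2 or more, 162 (64.5%) had them at different start sites. Rtnl1, a reticulon that shapes ER tubules, had 6 peaks, with ranks 129, 858, 903, 1632, 1655 and 6678. Its strongest peak had replicate ranks 129, 127 and 132, and its weakest 7048, 10432 and 5556. The peaks at ranks 858 and 1632 were summits of the same interval. SNF4Agamma, the gamma subunit of the energy sensor AMPK, had 5 peaks with ranks from 2743 to 7948. The strongest of these had replicate ranks 3531, 2631 and 2224, and the weakest 10132, 5131 and 16668. The peak of larp named above was the strongest of its 4, and larp was followed among genes with 4 peaks by Ptpmeg2, a protein tyrosine phosphatase gene, with ranks 86, 319, 383 and 3008. In all, 65 single-gene peaks (3.09%) shared their interval with another optimal summit, so they are not separate regions.

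The single-gene summits lay mainly between genes and in introns. There were 1048 between coding genes (49.8%), 572 in an intron of the gene (27.2%) and 333 in an untranslated exon of it (15.8%). Another coding gene's body held 135 (6.41%), among them the peaks of eIF6, CG1827 and elav. The gene's own coding sequence held 18 (0.855%). The label of a single gene covers coding genes only: 137 single-gene summits (6.51%) had a non-coding gene's start site within 500 bp, most often an ncRNA gene (124), and mRpL41, eIF6 and Reg-5 were the strongest of them. For 329 peaks (15.6%) the next coding gene started between 500 and 1000 bp from the summit, and for 622 (29.5%) none started within 5000 bp. Single-gene peaks were 69.9% (66.2 to 73.4) of the promoter peaks on X and between 60.3% and 63.9% on the 4 large autosomal arms.

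The limits of the rule cut through similar peaks. CG43814 and mamo, a zinc finger protein gene, were just inside, each at -500 bp, with ranks 3127 and 3428. The replicate summits of CG43814 lay at -519, -494 and -502 bp, so 2 of them would fall outside. Just outside was a peak at 502 bp from CG42514 (rank 5138, replicate ranks 5926, 4174 and 6141), with another 1 bp nearer its gene (rank 5854). For the second gene, CG31142 (rank 7979) and Fatp1 (rank 3746) were kept, because CG43998 and Lrr47 started just beyond 500 bp from the summit. The peaks at Lip3 (rank 2468) and Rab18 (rank 6110) were counted as shared, because CG34309 and RpL35 started at 499 and 498 bp.

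The genes of lipid metabolism and of SREBP processing were split between single-gene and shared peaks. Of 27 lipid synthesis genes, 10 had a single-gene peak, 7 a shared peak only and 10 neither, against 13% and 15.8% of all coding genes. Lpin led them. The peak of eas, the ethanolamine kinase of phosphatidylethanolamine synthesis, had rank 669 and replicate ranks 693, 590 and 686. Men, a malic enzyme gene that supplies NADPH, had rank 1566 and replicate ranks 1247, 1909 and 1775. Desat1, the fatty acid desaturase, had rank 1612 and replicate ranks 2031, 1368 and 1545. FASN1, the fatty acid synthase and a known SREBP target, had 2 weak peaks, with no match within 150 bp in 1 replicate each. The peak at rank 5719 had no match in replicate 1 and ranked 2450 and 8869 in replicates 2 and 3. The peak at rank 5906 ranked 3658 and 5525 in replicates 1 and 3 and had no match in replicate 2. ACC, the acetyl-CoA carboxylase, had rank 7209. FASN1 and ACC are named beyond the rule for named genes, after their values were seen.

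Of 16 genes of lipid storage and oxidation, 7 had a single-gene peak, against 13% of all coding genes. They were led by Mcad, the medium-chain acyl-CoA dehydrogenase, at rank 216 with replicate ranks 220, 257 and 178. The carnitine palmitoyltransferase gene whd followed at rank 2764 and the lipase gene Lip4 at rank 3354. Of the 12 genes of SREBP processing and its regulators, 1 had a single-gene peak, Sar1, the GTPase of COPII vesicles, at rank 5508. It was found at ranks 5536 and 4935 in replicates 1 and 3 and at 11960 in replicate 2. Another 5 of the 12, among them SREBP itself, had a shared peak only.

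Glycolysis had 6 of 12 genes with a single-gene peak, against 13% of all coding genes. Of these 6, 5 had one among the 1000 strongest optimal peaks, where 1.98% of all coding genes had one. Gapdh2 led. Eno, enolase, had rank 95 and replicate ranks 98, 76 and 119. Hex-A, a hexokinase, had rank 102 and replicate ranks 116, 73 and 120. Ldh, lactate dehydrogenase, had rank 103 and replicate ranks 110, 111 and 95. Pgk, phosphoglycerate kinase, had rank 585 and replicate ranks 572, 717 and 513, and its 3 single-gene peaks were the most in the list. The summits of these 5 genes lay between -305 and -168 bp. PyK, pyruvate kinase, was weaker, at rank 4154. Pgi and Pglym78 had a shared peak only, and Pfk, Ald1, Tpi and Gapdh1 had neither.

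Of the 30 genes of nuclear receptors and the ecdysone response, 13 had a single-gene peak, against 13% of all coding genes. All 13 had one found in all 3 replicates, as did 1281 of the 1811 genes with a single-gene peak (70.7%). Ecdysone is the steroid whose pulses drive the change from larva to pupa. The list also holds Ldh, under an older name. Eip75B, a nuclear receptor induced early by ecdysone, had rank 261, replicate ranks 333, 175 and 339, and a summit at +29 bp. E23, an ABC transporter gene, had rank 341 and replicate ranks 453, 296 and 320. Hnf4, the receptor known for fatty acid oxidation genes, had rank 765 and replicate ranks 783, 561 and 957. EcR, the ecdysone receptor, was weaker, at rank 3841 with replicate ranks 3117, 5373 and 4074. Of 12 genes for growth and sugar sensing, 4 had a single-gene peak, led by cbt (rank 347), a factor downstream of Mondo, foxo (rank 1800), the target of insulin signalling, and Mondo itself (rank 4295), the partner of bigmax in sugar sensing. Mondo was found at ranks 2925 and 8684 in replicates 1 and 2 and had no match in replicate 3.

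The unfolded protein response and heat shock list had the highest share of the 34 lists, with 11 of 18 genes, against 13% of all coding genes. All 11 had a single-gene peak found in all 3 replicates. Hsp27 led. Xbp1, the transcription factor spliced by Ire1 in ER stress, had rank 869 and replicate ranks 964, 914 and 768. Hsp83, the fly Hsp90, had rank 1051 and the spread between replicates given above. The chaperones of the ER Gp93 (rank 2042), Hsc70-3 (rank 3859) and Pdi (rank 5883) were among the 11. Ire1, crc and Hsc70-4 had a shared peak only.

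**Figure D5:**
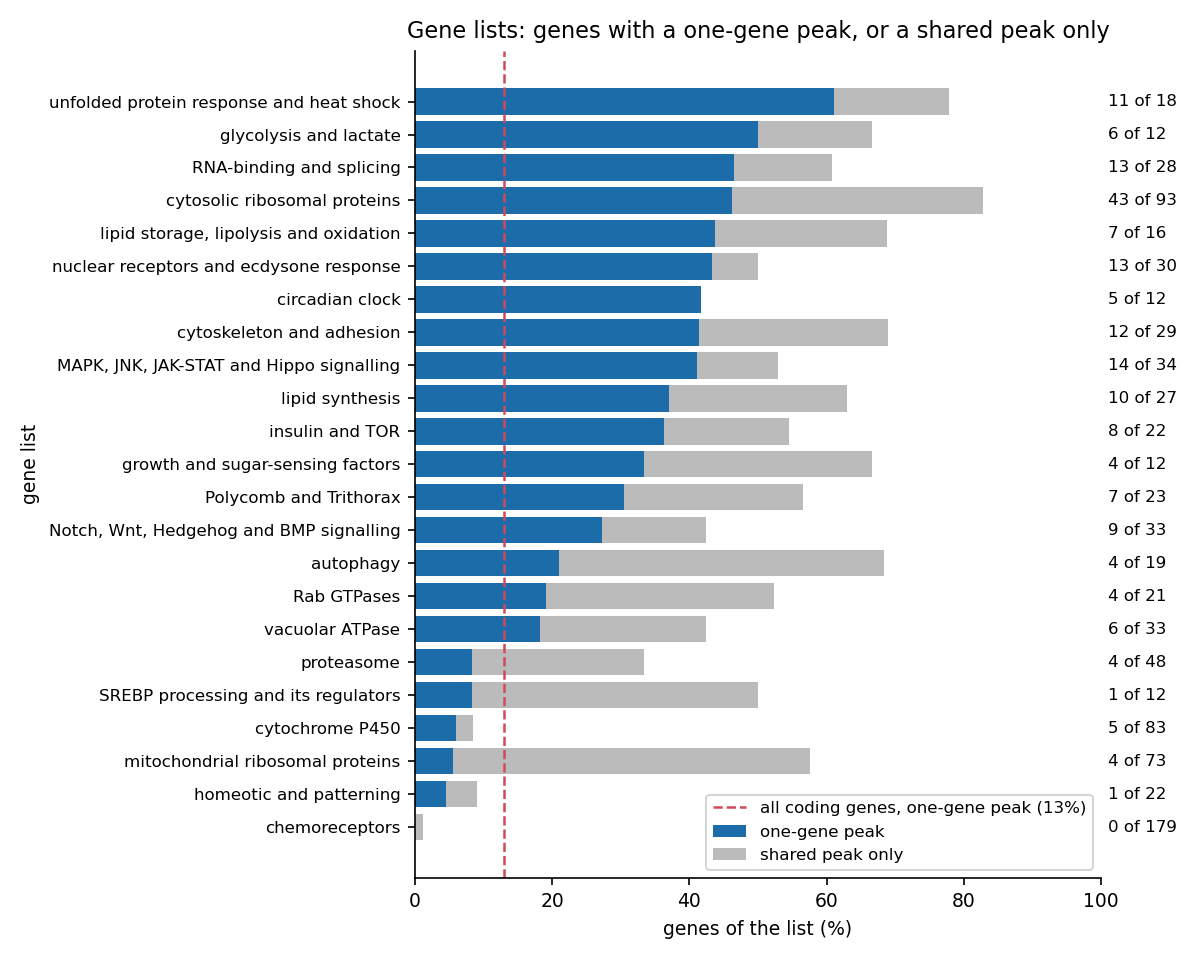
Percent of the genes in each of the 23 pathway and family lists (x axis) with a single-gene promoter peak (blue) and with a shared peak only (grey), with the number of genes with a single-gene peak of the number matched at the right; the dashed line is the 13% of all coding genes with a single-gene peak. Most lists lay above the line. Those below it were the chemoreceptor, homeotic, mitochondrial ribosomal protein, cytochrome P450, proteasome and SREBP processing lists.

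Of all 1811 genes with a single-gene peak, 276 had one among the 1000 strongest optimal peaks, so most had none there. Among such genes of the signalling lists, the counts were 2 of 8 for insulin and TOR and 2 of 14 for MAPK, JNK, JAK-STAT and Hippo. They were 1 of 9 for Notch, Wnt, Hedgehog and BMP and 1 of 5 for the circadian clock. Of all coding genes 13% had a single-gene peak, and of 22 insulin and TOR genes, 8 had one. The kinase gene sgg (rank 284, replicate ranks 388, 238 and 277), the phosphoinositide kinase subunit gene Pi3K21B (rank 535, replicate ranks 386, 844 and 533) and the insulin receptor gene InR (rank 2702, replicate ranks 1966, 5329 and 2006) led them. Of 34 genes of MAPK, JNK, JAK-STAT and Hippo signalling, 14 had one, led by spi, the EGF receptor ligand, with ranks 384 and 467, and aos, which binds that ligand, with rank 503. Mer, an upstream component of Hippo signalling, had rank 1063. Of 33 genes of Notch, Wnt, Hedgehog and BMP signalling, 9 had one, led by neur, a ubiquitin ligase of Notch signalling, at rank 877, Dad, an inhibitor of BMP signalling, at 3573, and shn, a zinc finger factor of the same pathway, at 4202. The shn peak was found at ranks 8271 and 1727 in replicates 1 and 2 and had no match in replicate 3. Of 12 circadian genes, 5 had one, led by sgg, cry (rank 1661), the blue light receptor, and vri (rank 1774), a repressor of Clk, while per, tim, Clk and cyc had neither kind of peak.

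Regulators of chromatin and RNA were also present, in counts to be read beside the 13% of all coding genes with a single-gene peak. Of 23 Polycomb and Trithorax genes, 7 had a single-gene peak, with Trl, GAGA factor, at rank 1016 and ph-d at 2883 after ph-p. Of 28 genes of RNA binding and splicing, 13 had one. The neuronal RNA-binding protein gene elav had rank 116 and replicate ranks 100, 104 and 136, sm had rank 528 with 363, 760 and 519, and mbl, a splicing regulator, rank 536 with 415, 666 and 639. Of 29 cytoskeleton and adhesion genes, 12 had one, led by spri (rank 508), sqh (rank 766), the myosin regulatory light chain, and Moe (rank 2001), which links actin to the membrane and had 4 single-gene peaks. Of 22 homeotic and patterning genes, 1 had one, bcd, at rank 3144. Its peak had ranks 2152 and 3511 in replicates 1 and 3 and no match in replicate 2.

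Large complexes differed in how their peaks were shared. Over all coding genes, 13% had a single-gene peak and 15.8% a shared peak only. Of 93 cytosolic ribosomal protein genes, found by symbol and including a few paralogs, 43 had a single-gene peak, 34 a shared peak only and 16 neither. Their peaks were of middling strength, with a median rank of 3432, and lay close to the start site, with a median of -34 bp. RpL23A (rank 904, replicate ranks 720, 1304 and 875), RpS4 (rank 1493) and RpS5a (rank 1607) led them. Of 73 mitochondrial ribosomal protein genes, 4 had a single-gene peak and 38 a shared peak only. After mRpL41, the strongest of the 4 were mRpL9 at rank 3463 and mRpL19 at 4020. Of 48 proteasome genes, 4 had a single-gene peak, led by Rpn11 (rank 2487), and 12 a shared peak only. Of 33 vacuolar ATPase genes, 6 had one, led by Vha16-1 (rank 2781), and 8 a shared peak only. Of 19 autophagy genes, 4 had one, led by Atg8a (rank 3364), and 9 a shared peak only. Of 21 Rab GTPase genes, 4 had one, led by Rab5 (rank 265, replicate ranks 329, 213 and 275), the GTPase of early endosomes, and 7 a shared peak only.

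Most coding genes had neither kind of promoter peak (9936 of 13945, 71.3%). The chemoreceptor, cytochrome P450 and homeotic (20 of 22) lists exceeded that share, as did most of the cell type marker lists. Of 179 chemoreceptor genes, 0 had a single-gene peak, 2 a shared peak only and 177 neither. Of 83 cytochrome P450 genes, 5 had a single-gene peak, 2 a shared peak only and 76 neither. The 5 were led by Cyp6v1 (rank 1160), Cyp317a1 (rank 1851) and Cyp6t1 (rank 4049). Markers of larval cell types gave counts from 0 to 3 in lists of 6 to 14 genes, where 13% of all coding genes had a single-gene peak. Lists this short were not tested against that share. Of 10 fat body markers, 0 had a single-gene peak, and of 14 midgut and 9 testis markers, also 0. The counts were 3 of 12 for larval muscle (Tm1, sls and Mef2) and 3 of 10 for neurons (elav, fne and Syx1A). The glia list had 3 of 8 (moody, loco and Indy), although Indy is not restricted to glia. Salivary gland had 2 of 10 (CrebA and fkh), haemocytes 1 of 10 (crq), cuticle and trachea 1 of 10 (trh), oenocytes 1 of 6 (Desat1) and imaginal discs 1 of 10 (so). A peak in whole larvae carries no record of the tissue it came from.

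The lists were compared with all coding genes as descriptions only, because their genes differ in length and number of start sites. Most of the 23 pathway and family lists had a share above 13%, so a share above it does not single out a list. Among the 1000 strongest optimal peaks, 290 were single-gene and 219 shared. The 276 genes at these single-gene peaks included 5 of glycolysis, 4 of nuclear receptors and ecdysone, 4 of RNA binding and splicing, 2 of lipid synthesis and 1 of the cytosolic ribosomal proteins.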

How the data were processed

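ChIP-seq of SREBP-GFP was analysed from narrowPeak lists of 3 biological replicates of 1 group, numbered as in the labels. The authors called peaks on dm6. Per the deposited notes, their optimal set comes from an irreproducible discovery rate step over a pooled list and the 3 replicate lists. The sources used here do not give the aligner, the peak caller, the control or the threshold of that step. The signal in the deposited lists is the caller's own peak height, on an unnamed scale, and served for ranks alone. The deposited -log10 q-values were tied at their highest value for 2082 of the 2106 single-gene peaks and were not used. The optimal set was the 7993 strongest of the 30000 pooled peaks. The depth is unknown, so no value was weighted by it. Nothing says whether the replicates shared a culture, so the spread between them may be partly technical.

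Start sites were those of every transcript of the 13945 coding genes on 6 arms in Ensembl release 115 (BDGP6). Sequence was the RefSeq copy of the same assembly, and no peak ended beyond its arms. Coordinates count from 1. Replicate peaks were matched by the nearest summit within 150 bp, in the full lists for ranks and among the 7993 strongest for the shares found. Motifs were searched on both strands within 50 bp of the summit. Python 3.11.15, pandas 2.3.3 and scipy 1.17.1 were used. The assignment was tested on simulated peaks, and the matching was checked on them for missed matches only. The sign-flip test was checked on 1 fixed set of values.

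The peaks, the 34 gene lists and the motifs were chosen with earlier results of these data known. Of the list genes, 9 were matched by a synonym and 5 (Dl, legless, h, Cg and sal) were not matched. The symbol pattern for cytochrome P450 genes was narrowed after the values were seen, to leave out cyclophilins. Genes were named by strength (15 genes), by list (up to 3), by number of peaks (3), by replicate rank ratio (3), by the edges of the rule (2 on each side) and by a downstream summit (3). Further list members, peaks far inside genes and genes with motifs were named after their values were seen. Alternatives were the limit of the rule, the start sites used, the strength, the matching, a left-out replicate and the motif window. The rule in each replicate's own list was added after seeing the data.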

Additional observations from a re-analysis of the deposited data

How the results depend on the processing

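Motif shares aside, of 76 values recomputed under 13 settings, 19 moved by more than the SD between replicates, the 95% interval or, for counts, 1.5 times, and 0 changed direction. Differences between single-gene and shared peaks were judged by the sign of their mean over replicates alone, since no exact p can pass 0.05 here. They ranged from -6.80 to -0.125 percentage points for the share found, from 713 to 1633 ranks and from -42.7 to -6.67 bp. For the share found, the replicates did not all have the same sign in the full lists or with a limit of 1000 bp. The share of promoter peaks with a single gene was 70.6% with a limit of 250 bp, 60.2% with 1000 bp, 58.9% with the first TSS of each gene only and 59.3% with non-coding start sites. The median position was -96 bp with a limit of 250 bp, and 72.7% of summits were upstream with 1000 bp. In the 3996 strongest optimal peaks there were 1015 single-gene peaks at 934 genes, with a share of promoter peaks of 56.6%, a median rank of 1957, a median position of -164 bp and 96.5% found in all 3 replicates. That share was 51.7% with summits matched within 50 bp, 71.4% within 300 bp, 70.8% by overlap of intervals and 89.3% in the full lists, and between 72.2% and 78.0% when 1 replicate was left out and both others had to hold the peak. A smaller limit, a wider match or fewer lists act on these values by construction. Motif shares grow with the window, for the DRE from 1.23% within 25 bp of the summit to 5.60% within 100 bp. No paired analysis was possible because all samples belong to 1 group. The 3 replicates cannot give an exact p under 0.25, and without read counts no peak height has an error of its own.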
